A study of Mus musculus with 13 samples.

Results

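The genes described here are 38 transcription factors and cofactors of sensory neurons, taken by name from the 41388 genes measured in each library. They were chosen for what they are known to do in sensory neurons of the dorsal root ganglion (DRG). Earlier results of these data were known when the choice was made. All 38 were found by their Ensembl identifiers. Of the 38, 30 had enough reads to be tested. The other 8 were Lmx1b, Neurog1, Neurog2, Runx3, Etv4, Mafa, Onecut1 and Onecut3. Because the members were picked by function, the values below describe how abundant each was, how it varied over the libraries, and whether it differed between spinal levels or sexes.

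Bulk RNA sequencing was done on cells sorted by green fluorescence from mouse DRG, the ganglia that hold the cell bodies of sensory neurons. All mice were C57BL/6 of 3 months carrying enhanced green fluorescent protein (EGFP) as a reporter of Ret, the tyrosine kinase receptor through which GDNF-type growth factors signal. The genotype field names a transgene, Tg(Ret-EGFP)SJ, whereas the series' design text describes a heterozygous knock-in of EGFP, which would leave 1 intact Ret allele, and every group carries the same allele. The groups were female L345 (ganglia of lumbar levels 3, 4 and 5, 3 libraries), female L6S1 (lumbar 6 and sacral 1, 3 libraries), male L345 (3 libraries) and male L6S1 (4 libraries, lettered A, D, E and F), with no treatment in any of them. Each library pooled 2 to 9 mice and 12 to 42 ganglia, so that differences between single mice were not seen. The libraries of a group are separate pools by their labels, and male L6S1 E and F have labels written in another form than the rest.

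Sensory neurons of the DRG arise from neural crest cells in which the proneural basic helix-loop-helix (bHLH) factors Neurog1 and Neurog2 switch on neuronal fate and then fade. Isl1 and Pou4f1, a LIM and a POU homeodomain factor, then end the early programme and begin that of sensory neurons in general. Later factors divide the lineages: Runx1, with Tlx3, Prrxl1 and Prdm12, for pain, itch and temperature neurons, and Runx3, Etv1, Maf, Mafa and Shox2 for touch and position sense. Ret itself marks non-peptidergic C-fibre neurons, in which Runx1 maintains it, and a set of rapidly adapting mechanoreceptors, so that members of either branch may be found in cells sorted for it.

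Total counts ran from 13030096 to 27011995 per library. Each of 9 markers of sensory neurons had at least 3 counts in every library, and their summed level was 10170 to 16520 CPM, the count scaled by library size. Markers of satellite glia and Schwann cells summed to 3373 to 4926 CPM in 11 libraries and in D, and to 9768 CPM in male L6S1 E, so that RNA of glial genes was present in every library. Markers of sympathetic neurons summed to 0.288 to 2.18 CPM, with Phox2a, Hand2 and Slc6a2 under 3 counts in every library. Those of the spinal cord and motor neurons summed to 6.63 to 21.0 CPM, with Mnx1, Chat, Olig2 and Slc32a1 under 3 counts. On the first principal component, with 40.8% of the variance, male L6S1 D and E scored 73.1 and 121, and the other 11 libraries -52.1 to 21.5. The second, with 20.5%, set other libraries apart. Female L345 A, female L6S1 A and male L345 A scored 62.4, 39.0 and 39.8 there, male L6S1 F -52.9, and the rest -29.8 to 25.9. Because D and E stood apart on the first component, some results that rest on them are also given without them.

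Levels are compared between genes per length, as reads per kilobase of length and per unit of library size (RPKM), averaged over the 13 libraries. Ldb2, a cofactor that binds LIM domains and not DNA, averaged 179.8 RPKM, and Pou4f1 156 RPKM. They were followed by Isl1 at 73.6, Klf7 at 70.8, Isl2 at 60.9 and Prrxl1 at 51.5 RPKM. Klf7 is a Krüppel-like factor needed for the survival of pain neurons, and Prrxl1, also called Drgx, is a homeodomain factor needed for the wiring of pain neurons. These 6 members were the only ones with at least 50 RPKM. The ranges of Isl1 (62.5 to 95.6 RPKM), Klf7 (52.8 to 91.5), Isl2 (35.1 to 76.3) and Prrxl1 (37.9 to 63.4) overlap. Within single libraries Isl1 was above Prrxl1 in 13 of 13, above Isl2 in 10 and above Klf7 in 6.

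A further 4 members lay between 10 and 50 RPKM: Prdm12 (16.1), a chromatin regulator required for pain neurons, Pou4f3 (14.2), the third POU factor of this class, the Krüppel-like factor Klf5 (12.8) and the zinc finger gene Tshz2 (11.8). Between 1 and 10 RPKM lay 11 members, in falling order Zfp521, Runx1, Etv1, Pou4f2, Tlx2, Tshz1, Tlx3, Prdm8, Onecut2, Hopx and Cux2. Hopx encodes a small homeodomain protein that does not bind DNA. Runx1 averaged 9.72 RPKM and its touch-lineage paralog Runx3 0.0485 RPKM. Under 1 RPKM, but tested, were Maf, Pbx3, Meis1, Bcl11b, Bcl11a, Neurod1, Shox2, Meis2 and Foxp2, from 0.987 RPKM for Maf down to 0.112 RPKM for Foxp2.

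The 8 members that were not tested had few counts over all 13 libraries together: 80 for Etv4, 67 for Runx3, 52 for Onecut1, 25 for Lmx1b, 24 for Neurog2, 18 for Neurog1 and 2 for Onecut3. Mafa, a marker of early Ret-positive mechanoreceptors in the embryo, had 0 counts in all 13 libraries, where a floor of 3 counts is 0.109 to 0.223 CPM. Its gene model in the annotation is 1080 bases long. A level under this floor was not detectable at this depth, counting error alone considered. Neurod1, the proneural member that acts after Neurog1 and Neurog2, was the only one of the 3 bHLH genes to be tested. Its level was 2.33, 1.22 and 1.15 CPM in female L345, 1.63, 1.02 and 0.911 in female L6S1, 0.744, 1.12 and 1.07 in male L345, and 2.00, 0.895, 1.05 and 0.437 in male L6S1. The 4 groups overlap.

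**Figure D1:**
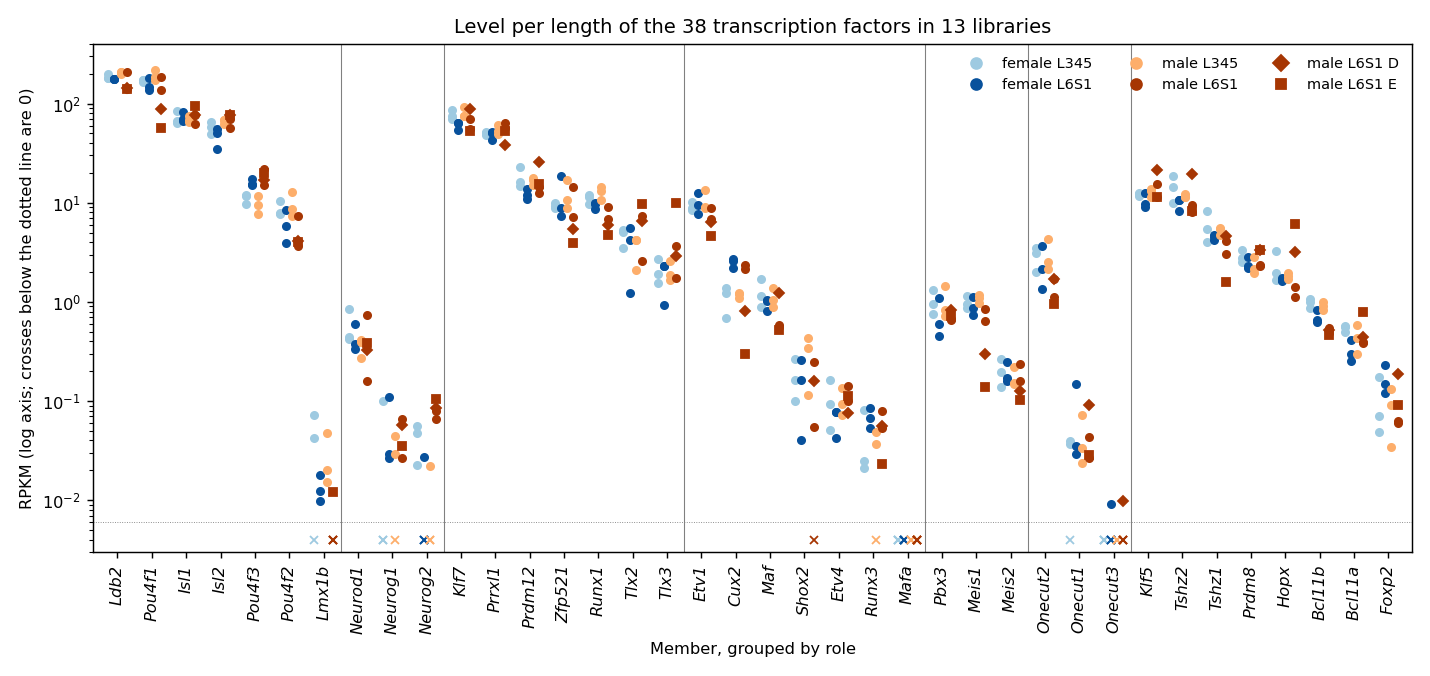
Each point is the level of 1 member in 1 library, in RPKM on a log axis, grouped by role and coloured by group, with crosses under the dotted line for values of 0. Ldb2, Pou4f1, Isl1, Klf7, Isl2 and Prrxl1 lie at the top, and Mafa is at 0 in every library.

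Several members belong to families of close relatives, and in some of them 1 gene gave nearly all of the family's RPKM. Runx1 made up 98.9% to 100% of Runx1 and Runx3 together (median 99.4%), Etv1 97.6% to 99.7% of Etv1 and Etv4, and Onecut2 94.4% to 100% of the 3 Onecut genes. Klf7 (78.3% to 88.8%) led Klf5, Prdm12 (82.4% to 89.7%) led Prdm8, and Tshz2 (66.2% to 84.1%) led Tshz1 in every library. The pair Isl1 and Isl2 was close to even, with Isl1 at 47.0% to 70.0% (median 54.4%). Other pairs were not led by the same gene in each library, such as Tlx2 with 49.8% to 72.5% of Tlx2 and Tlx3, and Bcl11b with 36.7% to 76.8% of Bcl11a and Bcl11b. Reads shared between paralogs could be split by the counting, and how such reads were handled is not given in the sources used here. For Onecut1, 52.8% of the exon bases overlap Gm20649 on the same strand. Opposite-strand genes overlap 39.3% for Klf7 (Gm26649) and 29.1% for Prdm8 (A730035I17Rik), and each of these other genes had 0 counts. How reads in such overlaps were counted is not given either, and their part in these shares was not tested.

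Promoter windows, the 250 bases before a transcription start in RefSeq (GRCm38.p6), were matched for 25 of the 38 members, with 30 windows in all. They were richer in G and C than promoters at large, with a median of 60.4% against 52.4% over 32851 windows, and held a median of 13 CpG against 6. Some member windows lie partly in annotated exons, with all 250 bases for 1 window of Hopx and 241 for 1 of Etv1. The exon part of all windows was not measured. The motif CAGCTG, an E-box of the kind that proneural bHLH factors bind, lay in 3 of the 30 windows (10.0%) and in 13% of all windows. It reads the same on either strand. The letters TAATTA, a homeodomain core that also reads the same on either strand, lay in 1 of 30 windows (3.33% against 4.84%), TGTGGT, a Runx core searched on either strand, in 4 (13.3% against 14.0%), and TATAAA, searched likewise, in 4 (13.3% against 12.4%). These shares are near those of all promoters, and a match is a description and not a bound site. The 3 windows with the E-box are those of Isl1 (chr13:116309689-116309938, minus strand), Pou4f1 (chr14:104468000-104468249, minus strand) and Prdm8 (chr5:98180619-98180868, plus strand), shown because the E-box is the motif class of the proneural members. They are printed 5′ to 3′ with the E-box in capitals, which begins 103, 118 and 217 bases before the start.
Isl1: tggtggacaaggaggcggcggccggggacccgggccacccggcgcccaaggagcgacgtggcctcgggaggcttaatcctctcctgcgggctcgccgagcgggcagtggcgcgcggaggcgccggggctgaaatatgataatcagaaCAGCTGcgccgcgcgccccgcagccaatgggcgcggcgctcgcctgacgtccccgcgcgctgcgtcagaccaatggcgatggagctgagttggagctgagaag
Pou4f1: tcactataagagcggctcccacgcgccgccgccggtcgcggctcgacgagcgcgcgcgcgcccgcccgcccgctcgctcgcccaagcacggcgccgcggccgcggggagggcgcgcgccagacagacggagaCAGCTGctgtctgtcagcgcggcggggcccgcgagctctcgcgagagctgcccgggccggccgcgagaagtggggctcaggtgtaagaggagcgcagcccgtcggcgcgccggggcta
Prdm8: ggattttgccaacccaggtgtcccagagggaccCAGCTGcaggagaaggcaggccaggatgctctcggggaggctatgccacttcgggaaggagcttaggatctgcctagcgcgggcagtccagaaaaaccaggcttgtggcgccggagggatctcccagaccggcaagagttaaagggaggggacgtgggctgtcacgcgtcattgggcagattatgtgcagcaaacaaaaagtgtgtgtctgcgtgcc

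Isl1 and Pou4f1, the general sensory factors whose windows are printed above, averaged 73.6 and 156 RPKM in these adult cells, and Prdm8, a chromatin regulator, 2.63 RPKM. The proneural members were far lower, at 0.0402 RPKM for Neurog1, 0.0392 for Neurog2 and 0.439 for Neurod1. These are levels side by side, and nothing on binding was measured.

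The main comparison was between the spinal levels, L6S1 against L345, averaged over the sexes. L6S1 ganglia hold the sensory neurons of the pelvic organs and the perineum, while L345 ganglia serve mostly the hind limb. No member passed the test (edgeR quasi-likelihood, adjusted p under 0.05 over 15406 genes), against 69 of all genes (0.448%), of which 66 were higher and 3 lower in L6S1. Of the 30 members tested, 6 had an unadjusted p under 0.05: Pou4f3 was the 1 with a higher mean in L6S1, and Pou4f2, Runx1, Onecut2, Bcl11b and Tshz1 the 5 with a lower one. Of all 15406 genes tested, 839 were higher and 454 lower in L6S1 at that unadjusted p. The median log2 fold change, the log2 ratio of L6S1 over L345, was -0.23 over the 30 members, with 21 below 0, and 0.02 over all genes tested, with 48.3% below 0. With DESeq2, 2 members passed, Pou4f3 and Bcl11b, where 1.05% of all genes did. With limma voom 0 passed, where 0.363% of all genes did and 8 members had an unadjusted p under 0.05. The count over all genes at that unadjusted p was not taken for limma voom. In bulk RNA, fewer cells of a type and less RNA per cell cannot be told apart.

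Pou4f3 (ENSMUSG00000024497, chromosome 18, 42394539 to 42397249 on GRCm38, plus strand) is a POU factor best known from hair cells of the inner ear, which with Pou4f1 and Pou4f2 forms the class of the Brn3 proteins. Its level was 28.6, 23.1 and 27.9 CPM in female L345 and 41.0, 35.6 and 36.1 in female L6S1. In males it was 18.4, 22.6 and 27.5 CPM in L345 and 35.8, 39.7, 46.9 and 52.1 in L6S1 A, D, E and F. All 7 L6S1 libraries lay above all 6 L345 libraries, the pattern of 83 of the 15406 genes (0.539%). The log2 ratio was 0.72 (SE 0.17), with an unadjusted p of 7.5e-04 and an adjusted p of 0.106 by edgeR. It was nearly the same without male L6S1 D and E (0.72, adjusted p = 0.0877). It passed with DESeq2 (adjusted p = 0.00316) and without male L6S1 A (0.0496), where 0.843% of all genes passed, and its adjusted p ran from 0.00316 to 0.418 over the 21 alternatives. Within the sexes the log2 ratio was 0.50 (SE 0.25) in females and 0.93 (SE 0.24) in males, and these 2 values differed by 0.43 (SE 0.34), which did not pass (adjusted p = 0.532).

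Its 2 relatives had lower means in L6S1. Pou4f2, known for retinal ganglion cells, was 33.4, 24.9 and 25.1 CPM in female L345, 27.3, 18.9 and 12.6 in female L6S1, 40.7, 27.6 and 23.6 in male L345, and 23.6, 13.2, 12.9 and 11.6 in male L6S1 A, D, E and F. Of the 7 L6S1 libraries, 5 lay below all of L345, and the log2 ratio was -0.75 (SE 0.24, adjusted p = 0.337). It ran from -0.91 to -0.61 over the 21 alternatives. Pou4f1 (ENSMUSG00000048349) was 813, 807 and 772 CPM in female L345, 841, 682 and 635 in female L6S1, 1021, 877 and 809.9 in male L345, and 874, 412, 264 and 641 in male L6S1. Here too 5 of 7 lay below L345, but the lowest values were D and E, and the log2 fold change moved from -0.43 (SE 0.24, adjusted p = 0.601) to -0.21 without them.

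In share of the RPKM of the 3 Pou4f genes, Pou4f3 took 5.90% ± 0.668 (SD, n = 3) in female L345 and 9.10% ± 0.721 (n = 3) in female L6S1. In males it took 4.66% ± 1.4 (n = 3) in L345 and 15.2% ± 7.23 (n = 4) in L6S1. The L345 libraries ran from 3.26% to 6.40% and the L6S1 libraries from 7.23% to 24.7%, with no overlap. Leaving aside D (15.4%) and E (24.7%), the highest L6S1 library was male F at 13.6%. The share holds the same Pou4f3 reads as the CPM above and is no separate evidence. Pou4f1 kept most of the sum throughout, with 70.3% to 91.4%, and Pou4f2 2.23% to 5.31%.

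**Figure D2:**
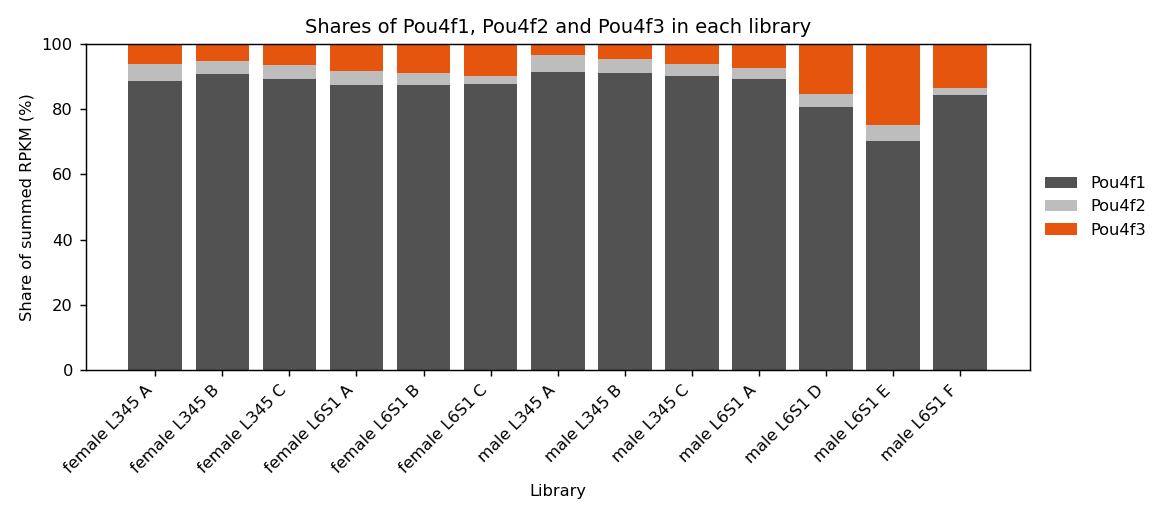
Each bar is 1 library and shows the percent of the summed RPKM of Pou4f1, Pou4f2 and Pou4f3 that each gene makes up. The share of Pou4f3 is at most 6.40% in the L345 libraries and at least 7.23% in the L6S1 libraries, with 24.7% in male L6S1 E.

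Bcl11b (ENSMUSG00000048251, chromosome 12, 107910403 to 108003602 on GRCm38, minus strand), a zinc finger repressor also called Ctip2, was the member whose 7 L6S1 libraries all lay below all 6 L345 libraries, the pattern of 35 of all genes (0.227%). It was 8.12, 6.99 and 8.58 CPM in female L345, 6.66, 5.29 and 5.08 in female L6S1, 8.03, 7.31 and 6.76 in male L345, and 4.45, 4.24, 3.74 and 3.97 in male L6S1. The gap was narrow, since the lowest L345 library was male C at 6.76 and the highest L6S1 library female A at 6.66 CPM. The log2 ratio was -0.66 (SE 0.17), with an unadjusted p of 0.00159 and an adjusted p of 0.168 by edgeR. DESeq2 gave an adjusted p of 0.0293, and the range over the 21 alternatives was 0.0293 to 0.461. Without D and E the log2 ratio was -0.65. Its relative Bcl11a, which represses transcription through similar zinc fingers, had a log2 ratio of -0.28 (SE 0.24, adjusted p = 0.699).

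Runx1 (ENSMUSG00000022952, chromosome 16, 92601466 to 92826149 on GRCm38, minus strand), the runt-domain factor that keeps Ret on in non-peptidergic neurons, was 116, 142 and 136 CPM in female L345 and 101, 117 and 115 in female L6S1. Male L345 gave 127, 157 and 169 CPM, and male L6S1 A, D, E and F gave 107, 70.5, 55.3 and 81.4. In 6 of 7 L6S1 libraries the value was below all of L345, and the 1 that was not, female B at 117 CPM, was above only female L345 A. The log2 ratio was -0.59 (SE 0.18, unadjusted p = 0.00531, adjusted p = 0.314 by edgeR), -0.47 without D and E, and -0.24 with libraries of the same sex and letter as a block. The block uses only A of male L6S1, so its value leans on the females. In males alone the log2 ratio of Runx1 was -0.94 (SE 0.25, adjusted p = 0.137), and in females -0.24 (SE 0.27, adjusted p = 1.0). The difference between the sexes did not pass (-0.70, SE 0.37, adjusted p = 0.410).

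Among the other nociceptor members none came near the threshold. Klf7, the most abundant of them per length, was 705, 605 and 571 CPM in female L345, 523, 513 and 441 in female L6S1, 744, 605 and 611 in male L345, and 573, 716, 429 and 452 in male L6S1. All female L6S1 libraries lay below all female L345 libraries, and male D was the exception in males (log2 ratio -0.31, SE 0.17, adjusted p = 0.616). The share of all genes with such a pattern within 1 sex was not counted, so nothing is read from it. Prrxl1 had a log2 ratio of -0.05 (SE 0.17), Prdm12 of -0.25 (SE 0.20) and Zfp521, a zinc finger gene linked to C-fibre touch neurons, of -0.17 (SE 0.30), with adjusted p from 0.691 to 0.927. The homeodomain genes Tlx3, which acts with Runx1 in itch and pain neurons, and Tlx2 stood at 0.50 (SE 0.37) and 0.28 (SE 0.35). Without D and E these values were 0.12 and 0.08, and with the block -0.14 and -0.33, so that their direction was not the same in every fit.

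Among the mechanoreceptor members, Cux2 (ENSMUSG00000042589, chromosome 5, 121858387 to 122050102 on GRCm38, minus strand) is a cut homeodomain gene found in part of the touch neurons. Female L345 libraries gave 5.46, 11 and 9.81 CPM and female L6S1 libraries 20.5, 21.5 and 17.6. Male L345 gave 9.60, 9.82 and 8.81 CPM, while male L6S1 gave 17.1 in A, 6.50 in D, 2.40 in E and 19.0 in F. Thus 5 of 7 L6S1 libraries lay above all of L345, and the remaining 2, D and E, lay below all of male L345. The log2 ratio was 0.72 (SE 0.36, adjusted p = 0.593 by edgeR). Without D and E it was 1.06 and passed (adjusted p = 0.0291), where 0.476% of all genes passed. With the replicate block it was 1.13 and passed (adjusted p = 0.0249), where 0.584% did. The block uses only A of male L6S1 for this comparison, so its value leans on the females. The values of Cux2 over every library are printed here because of these alternatives, after they were seen.

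Etv1, an ETS factor of proprioceptors and rapidly adapting touch neurons, was the most abundant of the mechanoreceptor members per length. It was 59.7, 49.5 and 52.4 CPM in female L345, 74.2, 56.2 and 45.1 in female L6S1, 78.9, 51.9 and 54.0 in male L345, and 52.7, 37.3, 27.2 and 40.0 in male L6S1. The female groups overlap, and in males 3 of 4 L6S1 libraries, D and E among them, lay below L345 (averaged log2 fold change -0.26, SE 0.20, adjusted p = 0.674). Over the 21 alternatives the averaged value ran from -0.37 to -0.07. Maf, a leucine zipper factor needed for low-threshold mechanoreceptors, had a log2 ratio of -0.49 (SE 0.25, adjusted p = 0.593). Shox2, a homeodomain factor needed for TrkB-positive touch neurons, had -0.75 (SE 0.58, adjusted p = 0.675) on 152 counts in all, and 4.62% of its exon bases overlap Rsrc1 on the opposite strand, with 15879 counts. Whether strand was used is not given in the sources used here, so reads of the pair cannot be told apart.

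Of the TALE homeodomain members, cofactors of Hox proteins, the most abundant per length was Pbx3. It was 8.01, 5.78 and 4.64 CPM in female L345, 6.61, 3.67 and 2.78 in female L6S1, 8.93, 4.38 and 5.11 in male L345, and 4.01, 5.09, 4.39 and 4.12 in male L6S1. The groups overlap, and the log2 ratio was -0.48 (SE 0.25, adjusted p = 0.593). Meis1 had -0.64 (SE 0.31, adjusted p = 0.593), which became -0.34 without D and E, and Meis2 had -0.10 (SE 0.27, adjusted p = 0.908), which became 0.07 without D and E. Onecut2 (ENSMUSG00000045991), a cut homeodomain factor, was 47.2, 41.8 and 26.6 CPM in female L345, 49.3, 28.9 and 17.9 in female L6S1, 57.4, 33.7 and 28.8 in male L345, and 23.0, 22.9, 12.7 and 14.9 in male L6S1. Only the male groups did not overlap, a pattern whose share over all genes was not counted. The log2 ratio was -0.69 (SE 0.27, unadjusted p = 0.0193, adjusted p = 0.513 by edgeR), and -0.92 to -0.52 over the 21 alternatives.

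Among the remaining members, Klf5 was the most abundant per length, with a log2 fold change between the levels of 0.00 (SE 0.19) and an adjusted p of 0.996. It was 21.8, 20.0 and 21.1 CPM in female L345, 15.7, 21.5 and 16.9 in female L6S1, 19.9, 22.6 and 23.5 in male L345, and 19.5, 36.9, 19.8 and 26.6 in male L6S1, with D the highest. Tshz1, a teashirt zinc finger gene, was 46.5, 30.8 and 22.6 CPM in female L345, 25.3, 26.9 and 23.8 in female L6S1, 31.0, 31.7 and 27 in male L345, and 23.1, 26.2, 8.89 and 17.3 in male L6S1. Its male groups did not overlap, while its female groups did, and the share of all genes with this pattern was not counted. The log2 ratio was -0.53 (SE 0.24, unadjusted p = 0.0432, adjusted p = 0.583 by edgeR), and -0.64 to -0.33 over the 21 alternatives. Tshz2 (-0.31), Prdm8 (0.03), Hopx (0.13) and Foxp2 (0.51), a forkhead factor, had adjusted p from 0.674 to 0.958. Without D and E, Hopx had a log2 ratio of -0.48, Prdm8 -0.11 and Foxp2 0.16. For Tshz2, 65.2% of the exon bases overlap the opposite-strand lincRNA Gm26883, which had 3 counts in all against 24265.

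**Figure D3:**
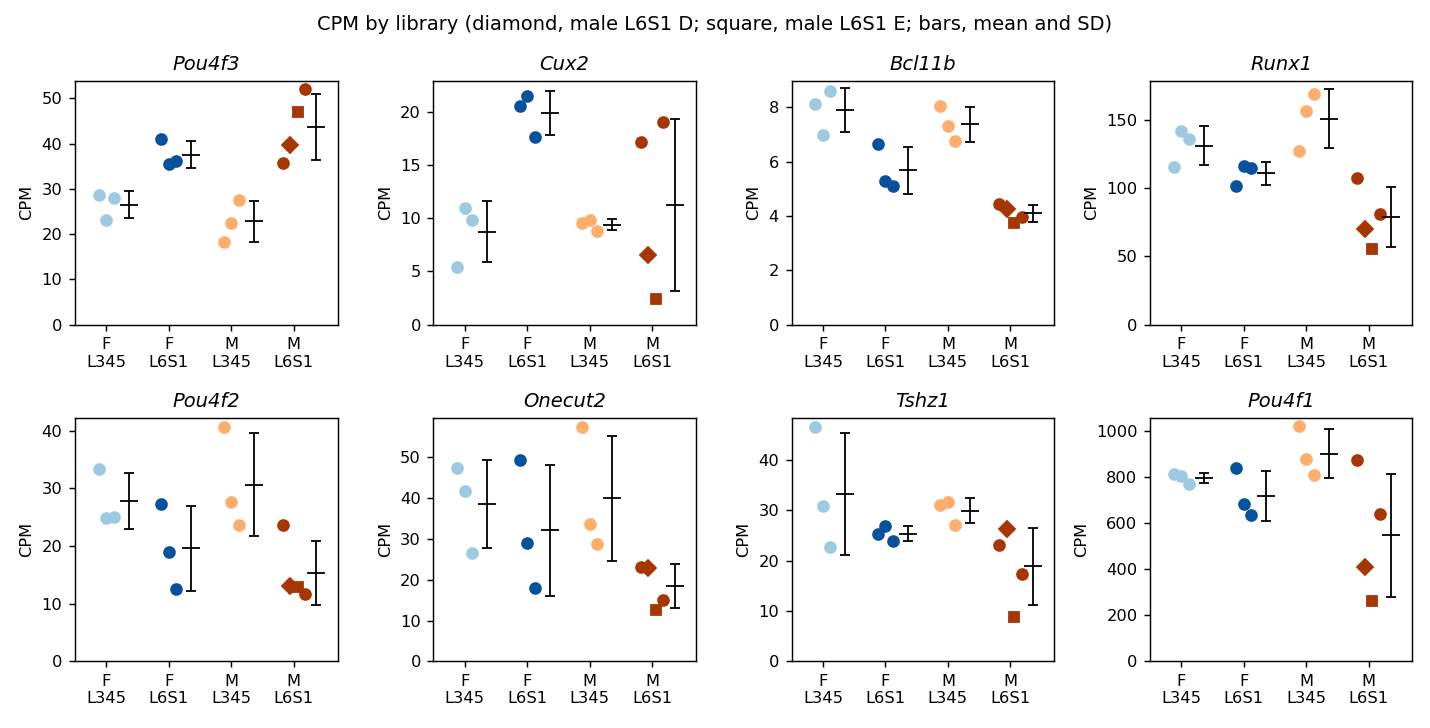
Points are CPM of single libraries for 8 members in female (F) and male (M) L345 and L6S1, with the mean and SD of each group at its right, a diamond for male L6S1 D and a square for E. The L6S1 points of Pou4f3 all lie above and those of Bcl11b all below the L345 points, while Cux2 is high in every L6S1 library but D and E.

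**Figure D4:**
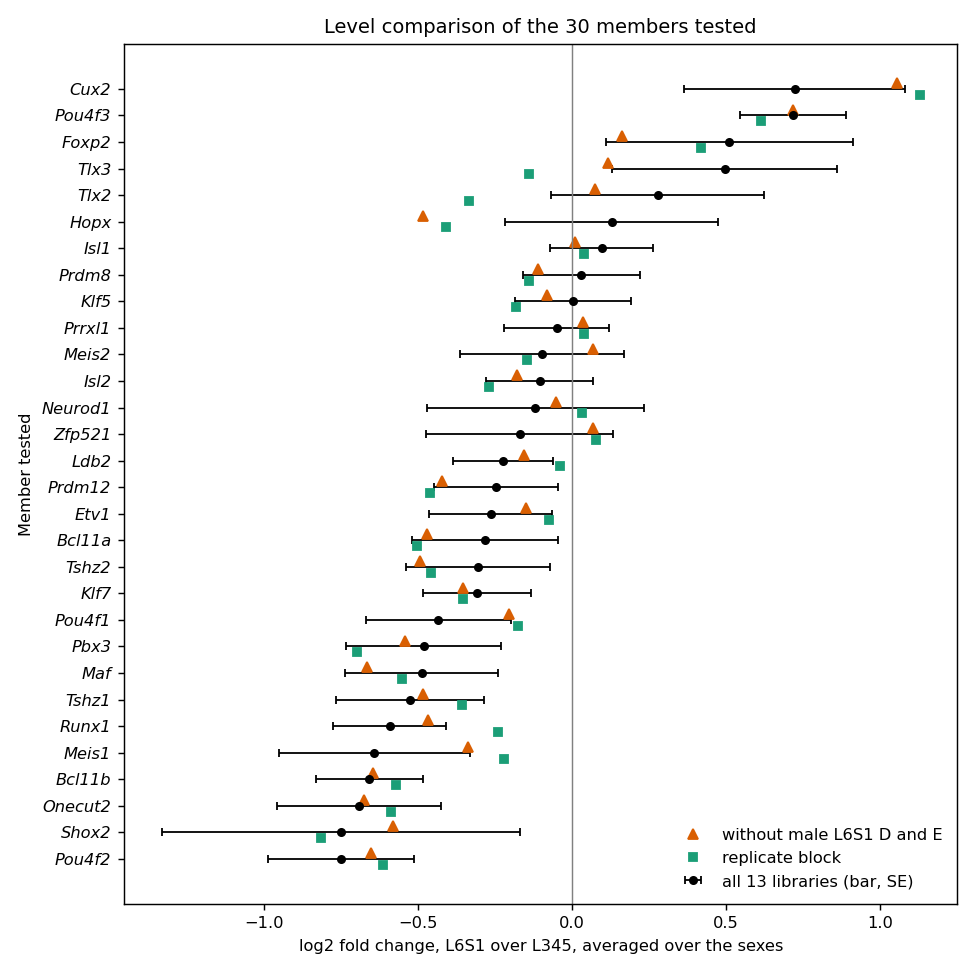
Black points are log2 fold changes of L6S1 over L345, averaged over the sexes, with bars of 1 SE, for the 30 members tested. Triangles leave out male L6S1 D and E and squares use the replicate block. Pou4f3 and Bcl11b moved little, Cux2 moved from 0.72 to 1.06 and 1.13, and Tlx3 lies below 0 with the block.

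Within females alone 0 of 30 members passed by edgeR, against 3 of all genes (0.0195%), and 2 had an unadjusted p under 0.05, Cux2 (1.18, SE 0.52) and Bcl11a (-0.75, SE 0.35). Of all 15406 genes tested, 263 were higher and 84 lower in female L6S1 at that unadjusted p. DESeq2 and limma voom also called 0. Within males 0 passed, against 34 of all genes (0.221%), and 9 had an unadjusted p under 0.05: Pou4f3 and Tlx3 with higher means in L6S1, and Pou4f1, Pou4f2, Runx1, Etv1, Meis1, Onecut2 and Bcl11b with lower ones. Of all 15406 genes tested, 2203 were higher and 1701 lower in male L6S1 at that unadjusted p, so such values were common beyond the members. DESeq2 called 3 members in males, Pou4f3, Bcl11b and Runx1, where 6.53% of all genes passed, and limma voom 0. Without D and E, 0 members passed in males by edgeR, where 0.122% of all genes did, and 6 had an unadjusted p under 0.05. The count over all genes at that unadjusted p was not taken for this fit. One library decided much of the male result: without male L6S1 A, 10 of 30 members passed, but so did 3135 of 15294 genes (20.5%). With the replicate block no member passed in females, where 56 of all genes did. In males that block rests on pair A alone.

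An interaction term tested whether the level effect differed between the sexes, and it passed for 0 members and for 0 of all genes (0.0%) by edgeR, with 1805 genes and 0 members at an unadjusted p under 0.05, and DESeq2 and limma voom called 0 members. The smallest adjusted p among the members was 0.409. A level difference in 1 sex is therefore not shown to differ from that in the other.

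Males against females, averaged over the levels, gave 0 members by edgeR, where 12 of all genes passed (0.0779%), and 0 by DESeq2 and limma voom. The processing notes of the female libraries name more tools than those of the male libraries, and sex and processing record cannot be told apart. Isl2, a LIM homeodomain relative of Isl1, was the 1 member with an unadjusted p under 0.05 (log2 ratio 0.39, SE 0.17, unadjusted p = 0.042, adjusted p = 0.665). It was 107, 127 and 144 CPM in female L345, 76.9, 121 and 111 in female L6S1, 136, 148 and 149 in male L345, and 124, 167, 167 and 155 in male L6S1. Of the 7 male libraries, 5 lay above all 6 female libraries, and male L345 A and male L6S1 A did not. The median over the 30 members was -0.06, and 0.01 over all genes tested. Of all genes tested, 441 were higher and 499 lower in males at an unadjusted p under 0.05.

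Ldb2, the most abundant member, was steady in 10 libraries and lower in the last 3. It was 495, 449.6 and 454 CPM in female L345, 444, 444 and 436 in female L6S1, 491, 513 and 514 in male L345, and 519, 356, 348 and 346 in male L6S1 A, D, E and F. Male A thus stood with male L345 and not with the other male L6S1 libraries. The averaged log2 fold change was -0.22 (SE 0.16, adjusted p = 0.663). Isl1, its partner in LIM complexes, ran from 248 to 378 CPM with a log2 ratio of 0.10 (SE 0.17, adjusted p = 0.842), and the groups overlap.

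Many members took extreme values in male L6S1 D and E. Of the 30 tested, D lay above the range of the other 11 libraries for 4 (Isl2, Prdm12, Klf5 and Tshz2) and below it for 7, and E above for 6 (Isl1, Isl2, Tlx2, Tlx3, Hopx and Bcl11a) and below for 13. Over all genes tested, D was above for 23.3% and below for 24.3%, and E above for 31.6% and below for 30.5%, so such values were common beyond the members. Pou4f1, Runx1, Zfp521, Etv1, Meis1 and Meis2 lay below in both libraries. Tlx3 was 15.1 CPM in E against 1.41 to 5.58 in the other 11, and Meis1 1.46 CPM in E and 3.11 in D against 6.70 to 12.3. In E, members known from the same branch thus lay on opposite sides, with Tlx3 above the range and Runx1 below it.

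Markers of other cells were summed in the same libraries, and single genes gave much of these sums. Glial markers summed to 9768 CPM in E and 4693 in D, against 3373 to 4926 in the other 11. Apoe alone gave 4985 CPM in E, against 349 to 1342 in the other 11. Immune markers summed to 25.6 CPM in E and 18.8 in D, against 5.46 to 11.7, with Cd163 and C1qa under 3 counts everywhere. Of these sums C1qb gave 10.7 CPM in E and 7.02 in D, and Lyz2 8.13 and 4.62, while Ptprc was 0 in E. Fibroblast markers summed to 587 CPM in E and 274 in D, against 79.6 to 440.3. Dcn alone gave 571 CPM in E and 257 in D, while Col1a2 in E was 3.51 CPM, its lowest value. The sensory neuron markers summed to 12950 and 16400 CPM in E and D, against 10170 to 16520, but single genes moved in both directions. Scn10a was 148 and 267 CPM against 280 to 680, and Slc17a6 108 and 110 against 208 to 615. Prph was 2361 and 2174 CPM against 708 to 2140, and Uchl1 2438 and 3325 against 952 to 2190. The part of these cells in the members' values was not tested. With CPM taken over library totals alone, with no scaling factor, D lay above for 2 members and below for 9, and E above for 4 and below for 18, and Isl1 in E and Isl2 in D and E then lay within the range.

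**Figure D5:**
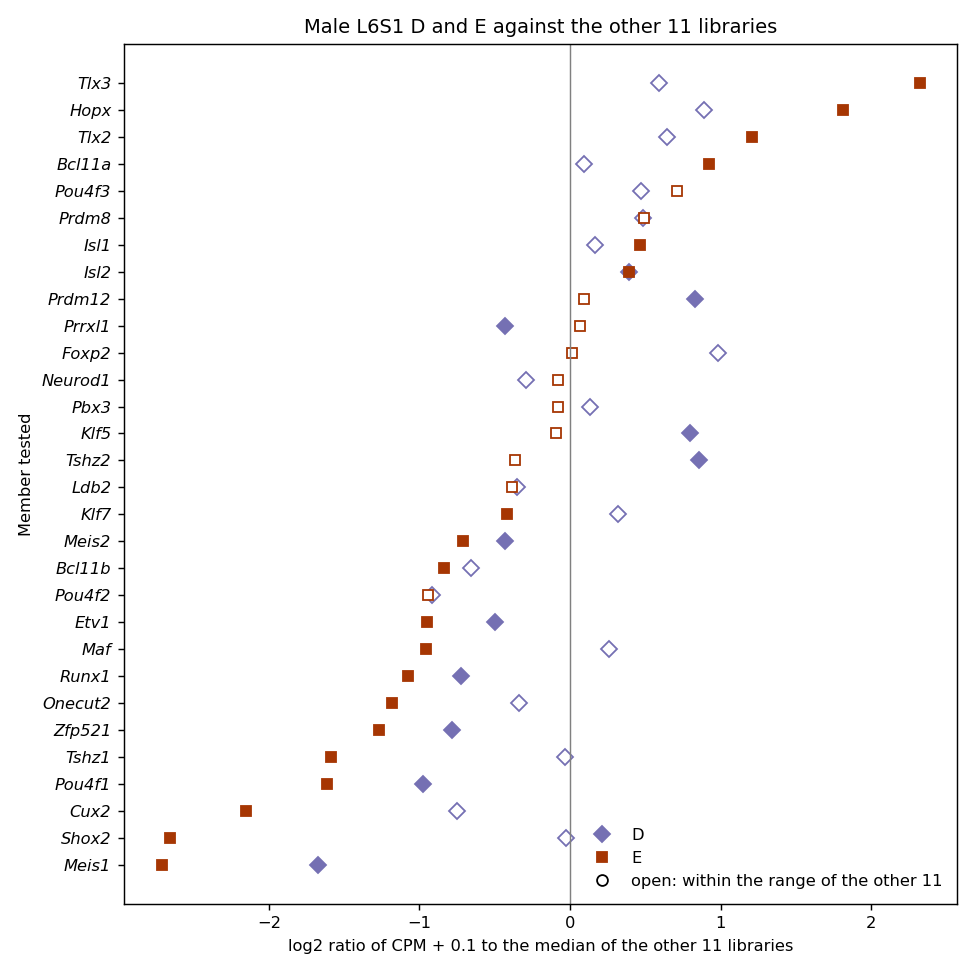
Diamonds (male L6S1 D) and squares (E) show the log2 ratio of CPM + 0.1 to the median of the other 11 libraries for each of the 30 members tested, filled where the value lies outside the range of those 11. Tlx3 and Hopx in E are the highest, and Meis1 in both libraries is among the lowest.

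Related factors and genes that depend on the members were set beside them from lists written with earlier results of these data known. Of 76 related transcription factors and cofactors, 75 were in the files and 58 were tested. None of the 58 passed in the averaged level comparison by edgeR, 3 with higher and 9 with lower means in L6S1 had an unadjusted p under 0.05, and the median log2 fold change was -0.19. Over all 15406 genes tested these counts were 839 and 454, with a median of 0.02. Of 15 genes known to depend on members, all were tested and 0 passed, with 1 at an unadjusted p under 0.05 in each direction and a median of -0.20. Trpm8, the cold receptor that needs Runx1, had a log2 ratio of 0.93 (SE 0.24, adjusted p = 0.168). It was 1.69 (SE 0.36, adjusted p = 0.174) in females and 0.16 (SE 0.33, adjusted p = 0.777) in males. The difference between the sexes did not pass (-1.53, SE 0.48, adjusted p = 0.409). Slc17a8, a vesicular glutamate transporter of C-fibre touch neurons, had -0.72 (SE 0.32, adjusted p = 0.580). Ret had -0.23 (SE 0.20, adjusted p = 0.708), and Mrgprd, the receptor of a non-peptidergic class kept by Runx1, -0.42 (SE 0.33, adjusted p = 0.675). Of the marker lists, the 20 glial genes gave 0 called with a median log2 fold change of -0.48 and 17 below 0, and their part in the members' values was not tested. The immune gene C1qb was the only gene of these lists to pass (2.18, SE 0.34, adjusted p = 0.00667).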

How the data were processed

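Counts, CPM and RPKM per gene were deposited for 13 libraries. The authors' counts are whole reads per gene with no normalization. Per the submitters' processing notes, Subread, featureCounts 1.4.5 and GRCm38.p2 belong to all libraries, and STAR 2.0.4b, Salmon and mm10 to the female ones alone, with no role given. Dividing each count by its library total gave the deposited CPM back (largest relative difference 5.1e-15), and dividing further by gene length gave the deposited RPKM (5.22e-14). Both columns served as a check. The sources used here do not give strand or the handling of multi-mapping reads.

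For the values printed, library totals were multiplied by their TMM factor (0.796 in male L6S1 E, 0.925 in D, 1.01 to 1.05 in the others), and RPKM divides the resulting CPM by gene length. Floors are 3 counts and cover counting error only, since PCR copies were not marked. Symbols came from GENCODE M21 and matched 40254 of 41388 identifiers; the 1134 without one held 0.109% of counts. No 2 libraries agreed within sampling noise.

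Tests used R 4.3.3 with edgeR 4.0.16 (filterByExpr by group, TMM, robust quasi-likelihood F-test, 1 mean per group, Benjamini-Hochberg adjustment over 15406 genes, call at adjusted p under 0.05), limma 3.58.1 and DESeq2 1.42.0, after testing on simulated data. SEs were derived from the log2 fold change and the F statistic. The alternatives were DESeq2, limma voom, RLE factors, library totals, no low-count filter, leaving out each library, D and E, or E and F of male L6S1, and a replicate block. Libraries of the same sex and letter deviated together across genes (correlations 0.52, 0.203 and 0.488 in females and 0.101 for male A). They were therefore treated as paired in that block for the level comparisons. It leaves 3 residual degrees of freedom averaged over the sexes, and 2 with a level effect for each sex. Male libraries without a partner of the same letter carry no weight there. For the sex comparison the block was the letter alone, shared by female and male libraries, with 4 residual degrees of freedom. Female L6S1 B correlated better with an L345 library of another letter. The labels do not say what the letters share, and pool sizes differ within some pairs.

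The members and lists were chosen with earlier results of these data known. By rule, every member is named, and values of every library are given for members with an unadjusted p under 0.05 in the averaged level or sex comparison and for the most abundant member per length of each role; those of Pou4f1 and Cux2 were added after their values were seen. P-values measure the spread between these pools. Among patterns between the levels, shares over all genes were counted only where all 7 L6S1 libraries lay on 1 side of all 6 L345 libraries. Values of 1 gene of the lists are not reported here.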

Additional observations from a re-analysis of the deposited data

Results flagged for a closer look

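The 4 male L6S1 libraries were checked for a library far from the other 3, by its gap to the nearest divided by the range of the group against a critical value of 0.829. It was exceeded for 5 of 30 members (16.7%) and for 852 of all 15406 genes tested (5.53%), where chance gives about 1 in 20 groups. Values of D and E outside the range of the other 11 libraries were common over all genes tested, and nothing about the members is read from this count. The members did not point to 1 library. Ldb2 was 519.2 CPM in A against 345.9 to 356.3 in D, E and F, and Pou4f2 was 23.63 CPM in A against 11.62 to 13.15. Maf was 10.18 CPM in D against 4.33 to 4.81, and Tshz2 was 150.6 CPM in D against 62.3 to 73.8. Bcl11a was 10.47 CPM in E against 5.12 to 5.84. The groups of 3 libraries were not checked in this way.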

How the results depend on the processing

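No member with an unadjusted p under 0.05 changed direction under any of the 21 alternatives, in the averaged level comparison or the sex comparison. In the level comparison averaged over the sexes, edgeR called 0 members, DESeq2 2, the fit without male L6S1 D and E 1 and the replicate block 1 (both Cux2), and leaving out each library gave 0 to 1. In males, edgeR called 0, DESeq2 3, and leaving out each library gave 0 to 10, the 10 without male L6S1 A. In females, in the difference between the sexes and in the sex comparison the count of members stayed at 0 under all 21 alternatives. The replicate block took 3 forms. With sex and letter as the block (3 residual degrees of freedom), the genes called moved from 69 to 90 averaged over the sexes. With a level effect for each sex (2 residual degrees of freedom) they moved from 3 to 56 in females, and the male effect rests on pair A alone. For the sex comparison the block was the letter alone, shared by female and male libraries (4 residual degrees of freedom). There the genes called moved from 12 to 369. These blocks changed the call of no member but Cux2. DESeq2 called 190 genes and limma voom 56 in the averaged comparison, and DESeq2 904 and limma voom 16 in males. Of the members' log2 fold changes under the alternatives, 614 of the averaged level comparison moved by less than their SE without changing call, 11 moved by more and 5 crossed the threshold, while 615 of the sex comparison moved by less and 15 by more. Causes of these shifts were not tested. Groups of 3 and 4 pools limit what could be called, and depth limits the 8 members that were not tested.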
